A study of Mus musculus with 18 samples.

Results

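The 224 genes described here are the mouse genes named Zfp followed by a number that had at least 20 counts in each of the unstimulated wild-type and unstimulated knock-in libraries of a macrophage time course. They were taken from 398 Zfp symbols among 45706 genes in the table. The CCCH genes Zfp36, Zfp36l1 and Zfp36l2 and any pseudogene or antisense entry were left out, and 14 members carry a letter after the number. The members were chosen by their counts in the 2 unstimulated libraries, so every change from the unstimulated state below is a description without a test. At the edge of the rule, Zfp760 had 29 and 20 counts in the wild-type and knock-in libraries and was kept, while Zfp867 had 19 and 25 and was not. All 224 also passed the filter on low counts used for the tests.

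The libraries were made from polyA RNA of bone marrow-derived macrophages, which are primary mouse cells grown out of bone marrow in medium conditioned by L929 cells. The mice were C57BL/6, and the labels give an age of 12 days. The 2 genotypes are WT and RelA-TA-KI, a knock-in at the NF-kB subunit RelA whose mutation the labels do not spell out. Each genotype has 1 unstimulated library (0 h), 4 libraries after LPS at 100 ng/ml and 4 after TNF at 10 ng/ml, taken at 0.5, 1, 3 and 8 h, which makes 18 libraries with 1 for each genotype and condition. LPS is the bacterial ligand of the receptor TLR4, and TNF is a cytokine. The same genes in both genotypes are therefore the only replication, and nothing in the labels says how many animals or cultures a library came from.

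C2H2 zinc finger proteins bind DNA through fingers, each folded around a zinc ion held by a pair of cysteines and a pair of histidines. Many carry a KRAB domain near the start of the protein. The KRAB domain recruits the corepressor Trim28, also called KAP1, which in turn brings the histone methyltransferase Setdb1 and leads to H3K9 methylation and silencing, in large part of transposons. Other proteins of the family have no KRAB domain and activate genes, bind RNA or act in mitosis or on ribosomes.

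A match to the KRAB A-box was found in the coding sequence of 97 members, and 127 had no match. The A-box match is shown here as coding DNA for 3 members that were low after 1 h of LPS (Zfp157, Zfp12 and Zfp60). It is also shown for 2 that had risen by 8 h (Zfp324 and Zfp949). Capitals mark the codons of the 7 fixed positions of the pattern searched. All were read from GENCODE M21 models on mm10.
Zfp157, chr5:138444770-138444802, plus strand: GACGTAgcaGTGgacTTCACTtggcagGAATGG
Zfp12, chr5:143239972-143240004, plus strand: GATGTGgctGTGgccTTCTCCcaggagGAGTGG
Zfp60, chr7:27738321-27738353, plus strand: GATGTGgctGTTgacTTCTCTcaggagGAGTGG
Zfp324, chr7:12968813-12968845, plus strand: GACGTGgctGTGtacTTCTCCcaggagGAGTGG
Zfp949, chr9:88567177-88567209, plus strand: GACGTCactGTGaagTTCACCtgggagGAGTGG
The finger itself is shown for Zfp157, with 11 fingers, and for Zfp281, with 3 fingers and no KRAB match. Capitals mark the 4 codons of the first finger for the cysteines and histidines at the zinc-holding positions of the pattern.
Zfp157, chr5:138456094-138456156, plus strand: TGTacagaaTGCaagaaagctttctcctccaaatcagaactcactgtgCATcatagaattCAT
Zfp281, chr1:136626063-136626125, plus strand: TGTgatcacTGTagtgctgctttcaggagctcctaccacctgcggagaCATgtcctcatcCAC

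The 18 libraries held 4663650 to 6721917 counts, and the smallest was the RelA-TA-KI library after 3 h with TNF. Macrophage markers summed to 9040 to 15500 CPM (counts divided by the TMM-scaled library size, the usual expression unit) in every library. Lymphocyte markers summed to at most 1.84 CPM, dendritic cell markers to at most 8.75 and mast cell and erythroid markers to at most 4.28. Neutrophil markers lay between 81.6 and 344 CPM. Stromal markers lay between 97.9 and 182 CPM in the 9 wild-type libraries and between 13.6 and 72.1 CPM in the 9 knock-in libraries. The 9 genes of an NF-kB response check, among them Nfkbia, Il1b and Zfp36, summed to 381 and 400 CPM at 0 h and to as much as 15000 CPM after stimulation. The mutation itself cannot be read from gene counts, and Rela lay between 63.2 and 282 CPM in wild-type and between 67.6 and 182 CPM in knock-in libraries. The NF-kB target Nfkbia was lower in knock-in cells in 8 of 8 stimulated pairs, with a log2 difference of -3.10 at 0.5 h of LPS and -3.25 at 0.5 h of TNF. Il1b, which encodes a cytokine, was also lower in 8 of 8, with log2 differences from -3.23 to -1.19. The 9 genes of the check were not all lower in knock-in cells. At 3 h of LPS, Ifit1 had 23683 counts in wild-type and 39345 in knock-in cells, in libraries of 5555720 and 5555552 counts. At 8 h of LPS, Zfp36 had 2964 and 4411 counts, in libraries of 4739922 and 5967840.

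After 1 h of LPS, 54 of the 224 zinc finger genes in wild-type cells (24.1%) and 59 in knock-in cells (26.3%) were at least 2-fold below their own 0 h value. Among the 9643 genes that meet the same 0 h rule, 1.97% and 2.30% were that low. The median log2 change of the zinc finger genes from 0 h was -0.52 in wild-type and -0.43 in knock-in cells, against -0.04 and -0.02 over all genes meeting the rule. In all, 186 and 185 members lay below their 0 h value. In both genotypes at once, 42 members were at least 2-fold lower (18.8%, against 1.07% of all genes meeting the rule). Over all genes meeting the rule, 103 of any name were 2-fold lower in both. In bulk samples, fewer cells of a type and less RNA per cell cannot be told apart.

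**Figure D1:**
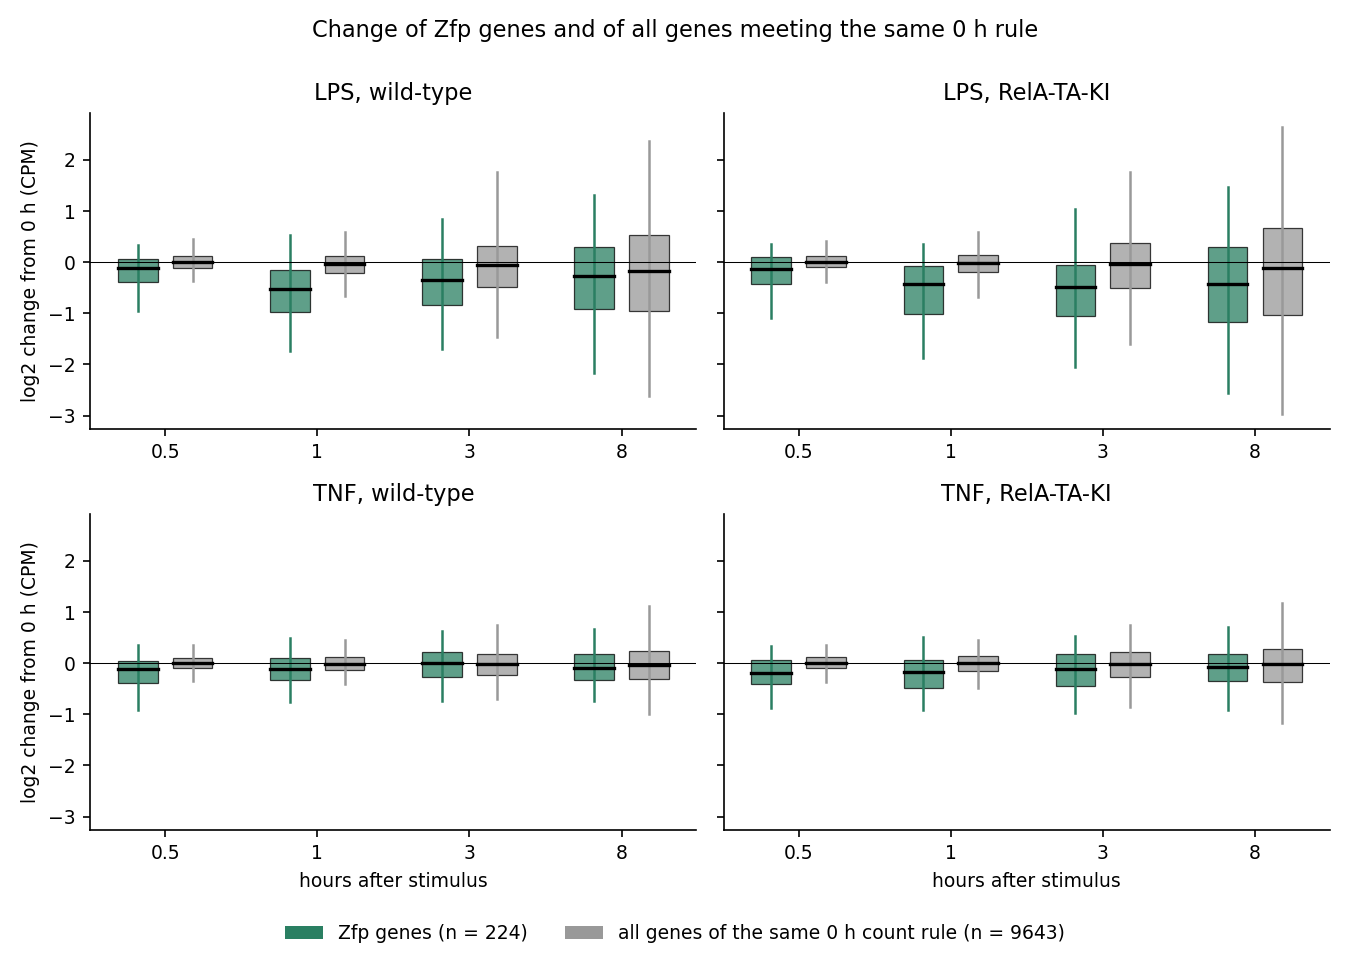
Log2 change from 0 h of the 224 zinc finger genes and of all 9643 genes meeting the same 0 h rule, by stimulus, time and genotype. After 1 h of LPS the median of the zinc finger genes lay at -0.52 (wild-type) and -0.43 (knock-in), while that of all genes meeting the rule stayed at -0.04 and -0.02.

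Zfp157, a KRAB member at chr5:138441468-138460694 on mm10, had 9.01 CPM in unstimulated wild-type cells. After LPS it had 6.24, 0.729, 3.40 and 4.28 CPM at 0.5, 1, 3 and 8 h, and after TNF 6.21, 6.01, 6.28 and 6.82 CPM. The knock-in values were 9.35 CPM at 0 h, 3.11, 1.95, 4.35 and 4.66 CPM after LPS and 4.47, 4.75, 7.5 and 8.69 CPM after TNF. In both genotypes the library at 1 h of LPS was the lowest of the 9, and every TNF library lay above it. Zfp12, a KRAB member with 15 fingers, had 10.8 CPM at 0 h in wild-type cells and 6.09, 3.28, 5.10 and 3.67 CPM after 0.5, 1, 3 and 8 h of LPS. The knock-in cells had 10.1 CPM and then 6.55, 2.73, 4.35 and 3.49 CPM. After TNF, Zfp12 stayed between 5.84 and 10.0 CPM in the 8 libraries of both genotypes. The LPS libraries at 1, 3 and 8 h thus lay below all TNF libraries for Zfp12.

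Zfp61, which has no KRAB match under the strict pattern but does when 1 mismatch is allowed, had 35 counts in unstimulated wild-type cells and none after 1 h of LPS. With a floor of 3 counts in that library it was at least 8.01-fold lower than at 0 h. In the knock-in cells it had 4.13 CPM at 0 h and 0.585 CPM after 1 h of LPS. After 1 h of TNF it had 2.86 and 2.74 CPM. Other members of the 42 include Zfp39, Zfp60, Zfp120, Zfp324, Zfp553 and Zfp870.

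The 224 genes together took 0.531% of the wild-type and 0.529% of the knock-in counts at 0 h, 0.415% and 0.428% after 1 h of LPS, and 0.350% and 0.307% after 8 h. After 1 h of TNF they took 0.495% and 0.479%. At 3 h of LPS, 48 members in wild-type (21.4%) and 62 in knock-in cells (27.7%) were 2-fold below 0 h, against 10.4% and 12.3% of all genes meeting the rule. At 8 h the counts were 52 (23.2%) and 63 (28.1%), against 23.9% and 25.5%, shares close to those of the members. Members at least 2-fold higher at 8 h numbered 23 (10.3%) and 21 (9.38%), against 15.6% and 18.5%.

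When the genotypes were averaged, 93 of the 224 members had their lowest LPS value at 1 h, 20 at 0.5 h, 51 at 3 h and 60 at 8 h. Of the 42 members that were 2-fold lower in both genotypes at 1 h of LPS, 17 were still so at 3 h and 13 at 8 h. At 8 h, 27 lay above their 1 h value in both genotypes, which the choice of members at 1 h favours. These counts hold under TMM scaling. With scaling by library totals the median of the 224 kept falling at 1, 3 and 8 h of LPS. It was -0.64, -0.84 and -1.05 in wild-type and -0.54, -1.03 and -1.41 in knock-in cells. After 1 h of TNF, none of the 42 was 2-fold lower in both genotypes, although 37 lay below 0 h in both. All 42 were lower after 1 h of LPS than after 1 h of TNF in both genotypes, which the choice of members at 1 h of LPS favours. At 0.5 h of LPS, 11 wild-type and 14 knock-in values were 2-fold lower, against 0.228% and 0.321% of all genes meeting the rule.

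**Figure D2:**
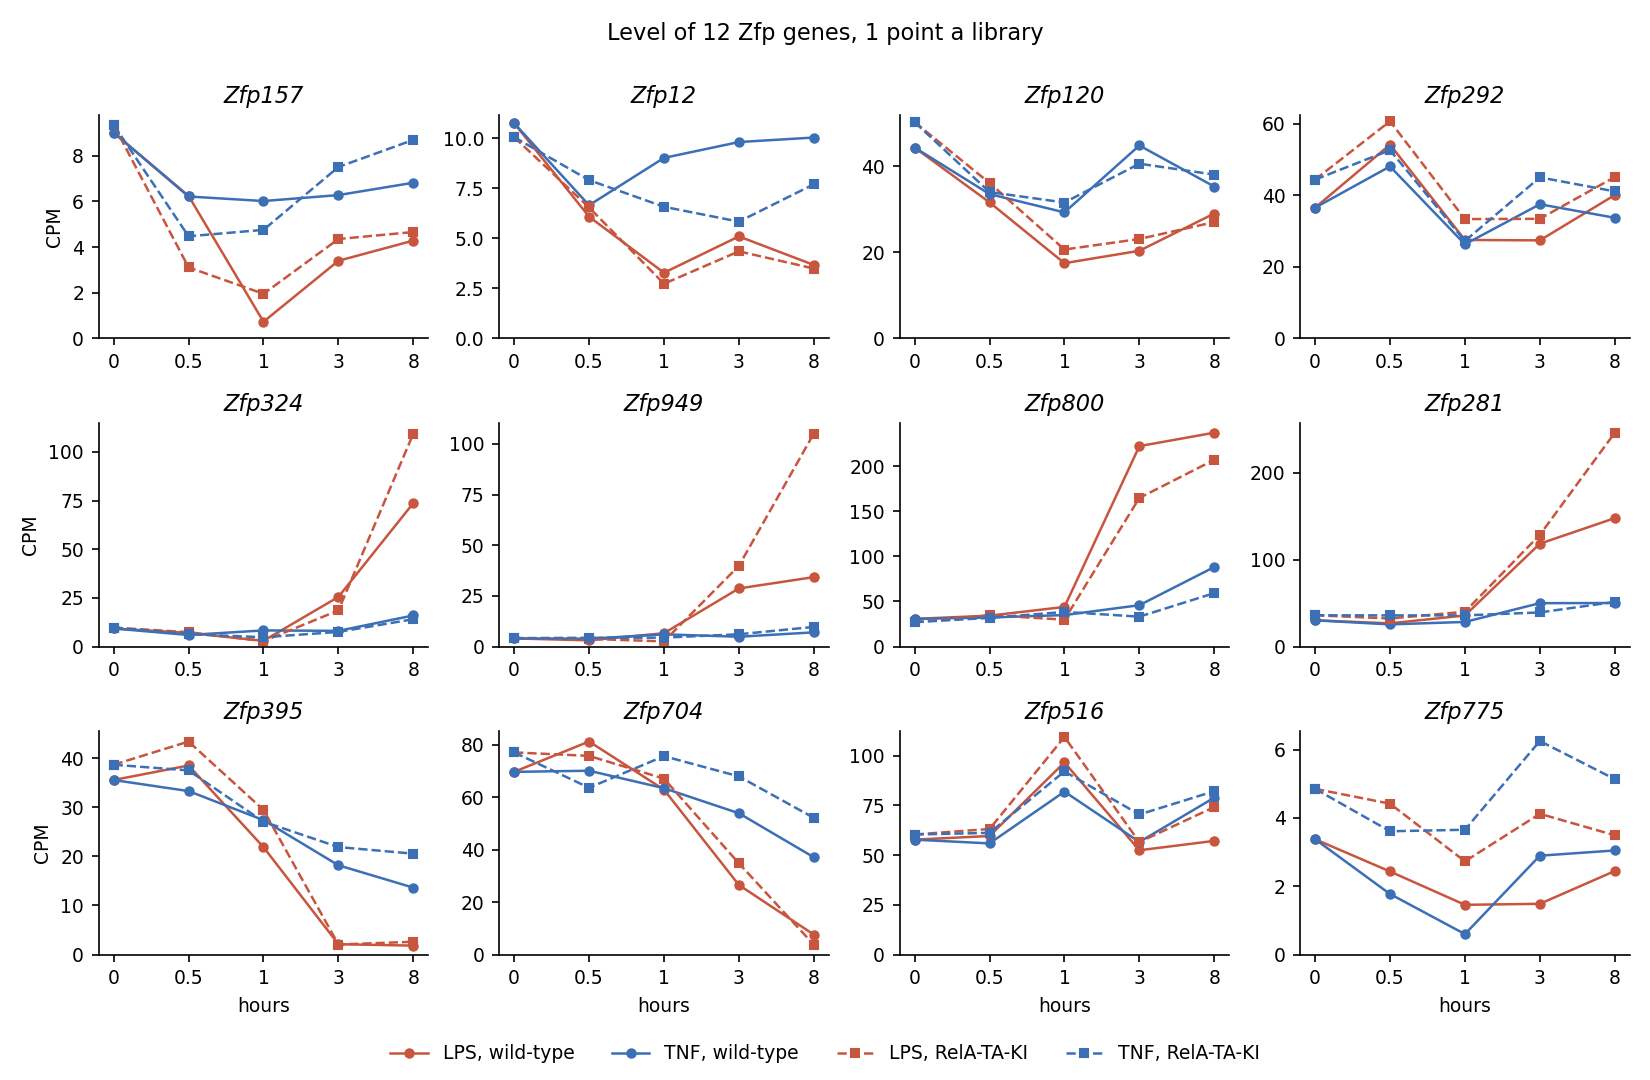
CPM of 12 zinc finger genes in each of the 18 libraries, by time, stimulus and genotype. Zfp157 lies at 0.729 and 1.95 CPM at 1 h of LPS, and Zfp800 at 237.3 and 207.2 CPM at 8 h of LPS.

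Among the 97 members with KRAB, 35 (36.1%) in wild-type cells and 41 (42.3%) in RelA-TA-KI cells were 2-fold lower after 1 h of LPS, with medians of -0.71 and -0.86. Among those without a match, 19 of 127 and 18 (14.2%) were, with medians of -0.41 and -0.28. In both genotypes at once, the counts were 29 of 97 (29.9%) and 13 of 127 (10.2%). KRAB members were more often among the low-count genes. Of the KRAB members, 68 lay at or below the members' median 0 h count of 76, and 29 of those were 2-fold lower in wild-type cells, compared with 6 of the 29 KRAB members above that median. Without KRAB, 16 of 44 low-count members and 3 of 83 high-count members were 2-fold lower. In knock-in cells, 35 of the 68 low-count and 6 of the 29 high-count KRAB members were 2-fold lower. Without KRAB, the knock-in counts were 14 of 44 and 4 of 83. At 8 h of LPS, 26.8% of KRAB members and 20.5% of the others were 2-fold lower in wild-type cells.

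The count at 0 h moved with the early low values. In wild-type cells after 1 h of LPS, 45 of the 112 members with the lower counts were 2-fold lower (40.2%), against 7.57% of 1744 genes meeting the rule in the same count range. Of the 112 members with the higher counts, 9 were (8.04%), against 0.734% of 7899 genes. The knock-in cells gave 43.8% against 9.46% for the lower range. How far the low counts widen these changes was not tested beyond this split. With a prior count of 5 in place of 0.5, 26 members instead of 42 were 2-fold lower in both genotypes. With a minimum of 50 counts in place of 20, the count was 17 among 144 members.

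**Figure D3:**
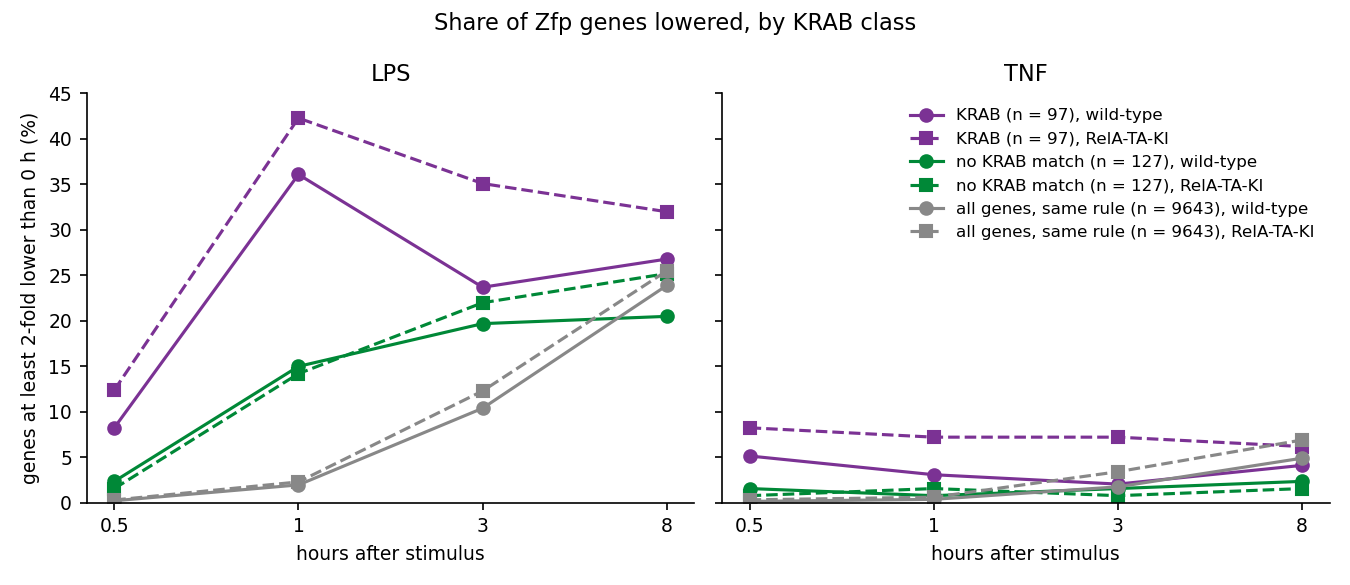
Share in percent of members at least 2-fold below 0 h, for members with and without a KRAB match and for all genes meeting the same 0 h rule, by stimulus, time and genotype. At 1 h of LPS the share is 36.1% and 42.3% with KRAB and, in knock-in cells, 14.2% without.

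Members with 10 or more fingers were 2-fold lower at 1 h of LPS in 41 of 122 cases in wild-type cells (33.6%), those with 4 to 9 fingers in 11 of 72 and those with 0 to 3 in 2 of 30. Runs of neighbouring Zfp genes (at least 3 members, each starting within 500 kb of the next) held 107 members in 18 clusters. Of those 107, 38 were 2-fold lower in wild-type (35.5%) and 36 in knock-in cells (33.6%). Outside the clusters, 16 (13.7%) and 23 (19.7%) of 117 were. A gene can fall into all of these classes, so they are not separate results.

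Other zinc finger families were measured for comparison. After 1 h of LPS in wild-type cells, the 30 Zbtb genes, which join fingers to a BTB domain, had a median change of -0.32. The 14 Zkscan and Zscan genes, which join fingers to a SCAN domain, had a median of -0.75, and -0.67 in knock-in cells. The 14 Zc3h genes, whose CCCH fingers bind RNA, had a median of 0.05. The medians of the C2H2 families thus lay below 0 and that of the CCCH genes did not. Of the Zkscan and Zscan genes, 28.6% in wild-type and 42.9% in knock-in cells were at least 2-fold below 0 h. The shares were 6.67% and 20% for Zbtb and 0% and 7.14% for Zc3h genes. Among the 224 Zfp genes they were 24.1% and 26.3%, so the early low values were not particular to Zfp genes.

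The tested comparison at 1 h leaves out the 0 h libraries. It sets the libraries at 1 h of LPS against those at 0.5 h, with edgeR's quasi-likelihood test and Benjamini-Hochberg adjustment over 11270 genes, and a gene is called at an adjusted p under 0.05. Of the zinc finger genes, 16 fell (7.14%, against 0.705% of all genes meeting the 0 h rule) and 3 rose (1.34%, against 1.32%). The median log2 difference of all 224 was -0.31. In all, 69 of the 11270 genes were called lower, and 16 of them were members. The p-values measure the spread left over all 16 stimulated libraries after terms for condition and genotype. Each condition has a single pair of genotypes, which stand in for replicates. A response that differs between the genotypes therefore counts as spread.

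Zfp292, a large protein with 15 finger matches, had the lowest adjusted p. In wild-type cells it had 54.2 CPM at 0.5 h and 27.5 CPM at 1 h of LPS, and in knock-in cells 60.7 and 33.4 CPM. The log2 difference was -0.89 ± 0.10 (SE, edgeR adjusted p = 0.000691). The groups did not overlap. At 0 h Zfp292 had 36.5 and 44.4 CPM, so its 0.5 h values lay above and its 1 h values below the unstimulated ones. It also fell after TNF, by 0.90 ± 0.10 on the log2 scale (edgeR adjusted p = 0.00385).

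Among other members that fell between 0.5 and 1 h of LPS, Zfp74 went from 8.22 and 9.33 CPM to 4.19 and 3.71 CPM (wild-type and knock-in). Zfp113 went from 5.48 and 6.54 CPM to 2.01 and 2.34 CPM. For Zfp61 the sums over both genotypes were 45 counts at 0.5 h and 3 at 1 h, a 12.6-fold lower value with a 95% interval of 4.03 to 63.2 that covers counting error only. Also lower were Zfp467 (-1.25 ± 0.25), Zfp953 (-0.98 ± 0.20), Zfp398 (-1.60 ± 0.36), Zfp316 (-1.41 ± 0.32) and Zfp27 (-1.25 ± 0.26). By class, 8 of the 16 are among the 97 members with a KRAB match and 8 among the 127 without. With 1 mismatch allowed, 12 are among 112 with a match and 4 among 112 without, so the split depends on the pattern.

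The 3 members that rose are Zfp516, Zfp131 and Zfp607a. Zfp516, known for activating the Ucp1 gene in brown fat, went from 59.6 to 96.6 CPM in wild-type and from 63.2 to 109.4 CPM in knock-in cells, a log2 difference of 0.78 ± 0.09 (edgeR adjusted p = 0.000843). It then had 52.5 and 56.6 CPM at 3 h, back near its 0 h values of 57.8 and 60.4 CPM. Zfp516 also rose after TNF, by 0.58 ± 0.09 (edgeR adjusted p = 0.0213). Zfp131, which carries a BTB domain, differed by 0.70 ± 0.12 and Zfp607a by 1.29 ± 0.26.

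The count of 16 rests on few libraries. Without the wild-type LPS library at 0.5 h it was 4, without that at 1 h 3, without the knock-in LPS library at 0.5 h 1 and without that at 1 h 5. Without any 1 of the 4 TNF libraries at 0.5 and 1 h it was 10. The count of 3 higher was 1 without the wild-type LPS library at 0.5 or 1 h or the knock-in one at 0.5 h, and 5 without either LPS library at 8 h. At an unadjusted p under 0.05, 90 of the 224 members differed in either direction, against 1187 of the 9643 genes meeting the 0 h rule.

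The promoters of the 2 tested risers with a match and of Zfp84, which is lower after LPS than TNF are shown to place the kB consensus, which is the sequence NF-kB binds. They are RefSeq sequences on GRCm38.p6 from 250 bases before to 50 bases after the start, with every match on either strand in capitals, and overlapping matches run together.
Zfp607a, chr7:27860335-27860634, plus strand: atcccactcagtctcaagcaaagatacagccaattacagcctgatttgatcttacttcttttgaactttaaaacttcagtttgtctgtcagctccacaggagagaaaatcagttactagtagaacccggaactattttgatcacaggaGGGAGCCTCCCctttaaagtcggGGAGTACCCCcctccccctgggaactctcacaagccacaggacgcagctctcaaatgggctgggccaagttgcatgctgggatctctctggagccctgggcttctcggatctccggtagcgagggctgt
Zfp131, chr13:119790683-119790982, minus strand: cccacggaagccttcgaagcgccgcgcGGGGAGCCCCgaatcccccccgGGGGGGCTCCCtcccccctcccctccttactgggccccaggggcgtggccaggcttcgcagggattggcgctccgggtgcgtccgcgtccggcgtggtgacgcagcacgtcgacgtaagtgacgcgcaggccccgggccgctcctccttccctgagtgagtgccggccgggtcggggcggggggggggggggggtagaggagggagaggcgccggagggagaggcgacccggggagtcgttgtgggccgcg
Zfp84, chr7:29768302-29768601, plus strand: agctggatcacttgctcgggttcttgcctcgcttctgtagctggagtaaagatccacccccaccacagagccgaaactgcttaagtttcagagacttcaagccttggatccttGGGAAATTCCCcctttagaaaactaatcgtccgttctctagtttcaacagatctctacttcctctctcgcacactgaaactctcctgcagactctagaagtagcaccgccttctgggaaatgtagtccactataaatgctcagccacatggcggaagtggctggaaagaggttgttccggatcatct
Of the 224 members, 185 had a promoter in the table, and 21 of these (11.4%) held at least 1 match. The share was 9.55% over 27025 genes and 12.1% over 7750 genes that meet the 0 h rule. Of members called higher at 8 h of LPS, 7 of 48 (14.6%) held a match, and of those called lower 6 of 50 (12.0%). Of the 42 members 2-fold lower at 1 h, 3 of 36 did (8.33%). The shares lay close to each other, and a match is only a run of letters.

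At 3 h of LPS against 0.5 h, 30 of the 224 genes rose (13.4%, against 21.8% of all genes meeting the 0 h rule) and 60 fell (26.8%, against 24.0%). At 8 h, 54 rose (24.1%, against 31.8%) and 64 fell (28.6%, against 37.6%). At 8 h both shares lay below those of all genes. Of the 112 members with the higher 0 h counts, 33 rose and 38 fell at 8 h. Of the 112 with the lower counts, 21 rose and 26 fell. Shares of all genes in the same count ranges are not given for the tested comparisons, and the part of low counts in these shares was not tested. The median differences were -0.24 at 3 h and -0.07 at 8 h. The comparisons at 3 and 8 h share the 0.5 h libraries. Without the wild-type LPS library at 0.5 h, 19 rose at 3 h, and without the knock-in one, 39 fell. Scaling by library totals put the median of all genes at -0.48 at 3 h and -0.93 at 8 h. With it, 15 rose and 123 fell at 3 h and 17 rose and 144 fell at 8 h. The share of called members that rose at 8 h was then 10.6% and not 45.8%, and at 3 h 10.9% and not 33.3%.

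**Figure D4:**
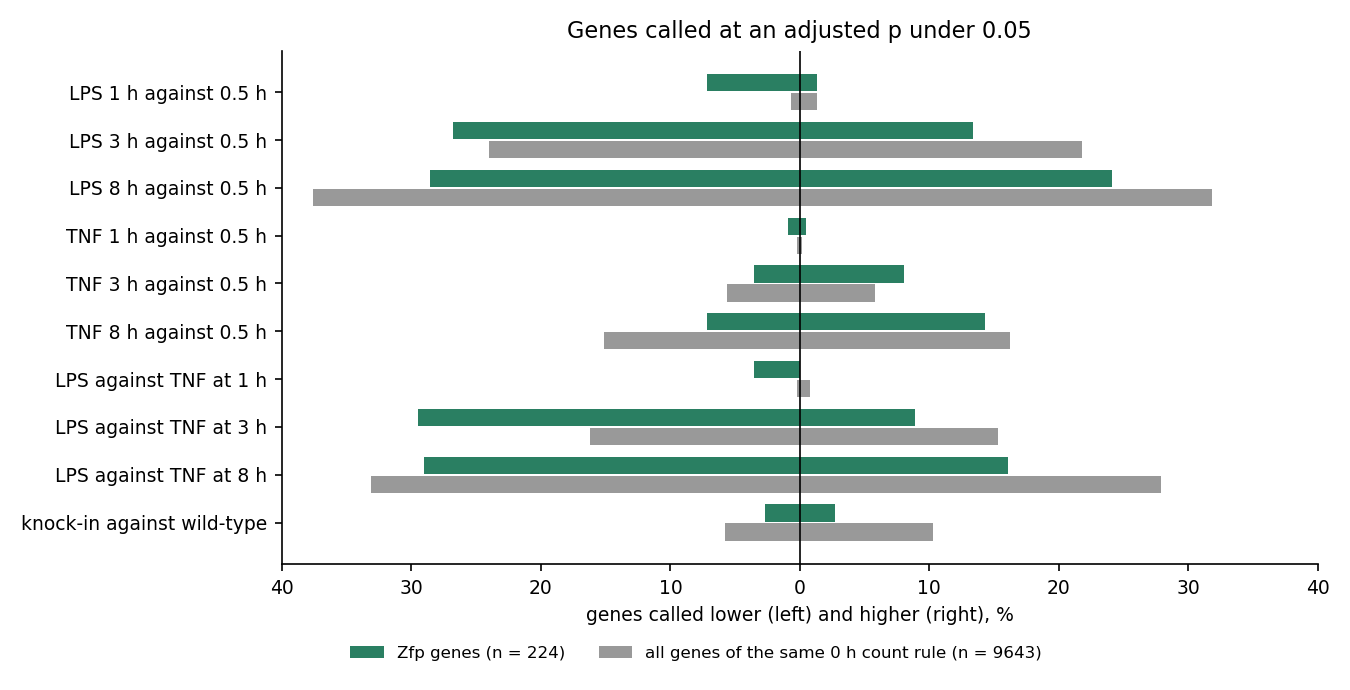
Share in percent of the 224 zinc finger genes and of all 9643 genes meeting the same 0 h rule called higher (right) and lower (left) at an edgeR adjusted p under 0.05 in each tested comparison. At 1 h of LPS 7.14% of the zinc finger genes are lower, against 0.705% of all genes, and at 8 h 28.6%, against 37.6%.

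Zfp949, a KRAB member with 11 fingers, rose most among members at 8 h of LPS. Wild-type cells had 4.0 CPM at 0 h and 3.04, 6.56, 28.7 and 34.3 CPM at 0.5, 1, 3 and 8 h, and knock-in cells had 4.13 CPM and then 3.76, 2.54, 39.8 and 105.1 CPM. The 3 h and 8 h libraries of both genotypes lay above all earlier ones, and the difference at 8 h was 4.31 ± 0.47 on the log2 scale (edgeR adjusted p = 1.37e-05). Zfp324, also with KRAB, had 2.92 and 2.73 CPM at 1 h of LPS, 25.5 and 18.6 CPM at 3 h and 73.7 and 109.4 CPM at 8 h. Its 0 h values were 9.26 and 9.71 CPM. Its difference at 8 h was 3.70 ± 0.23 (edgeR adjusted p = 4.09e-08), so that a member of the early low group had one of the largest rises at 8 h.

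Zfp800, a gene required for formation of pancreatic endocrine cells, had 30.7 CPM at 0 h in wild-type cells and 222.4 and 237.3 CPM at 3 and 8 h of LPS. In knock-in cells it had 27.0, 164.9 and 207.2 CPM. Its difference was 2.47 ± 0.17 at 3 h (edgeR adjusted p = 3.05e-07) and 2.71 ± 0.17 at 8 h (3.84e-08). Zfp281, a regulator of pluripotency genes, had 30.2, 118.3 and 147.7 CPM at 0, 3 and 8 h of LPS in wild-type cells and 36, 128.5 and 245.9 CPM in knock-in cells. The LPS libraries at 3 and 8 h lay above all others for both genes. Zfp319 and Zfp513 also rose, with differences at 8 h of 2.35 ± 0.13 and 2.37 ± 0.12. Zfp513 shares exon sequence with Snx17 on the opposite strand over 6.58% of its exons, which makes its count less certain. Zfp945 rose to 24.6 and 38.9 CPM at 3 h and lay at 11 and 13.4 CPM at 8 h.

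Zfp395, which binds promoters such as that of huntingtin, fell by over 4 on the log2 scale. After LPS the wild-type cells had 38.5, 21.9, 2.12 and 1.84 CPM at 0.5, 1, 3 and 8 h, and the knock-in cells 43.4, 29.5, 2.06 and 2.62 CPM. Its difference was -4.28 ± 0.21 at 3 h (edgeR adjusted p = 3.18e-08) and -4.16 ± 0.22 at 8 h (1.11e-08). The 3 and 8 h libraries lay far below the rest in both genotypes. Zfp704 had 81.3, 62.9, 26.6 and 7.65 CPM after LPS in wild-type cells and 75.8, 67.1, 34.8 and 3.78 CPM in knock-in cells, a difference of -3.76 ± 0.27 at 8 h. Its exons overlap a gene on the opposite strand over 16.6% of their length. Zfp703, a corepressor of the NET family, had 113.4 and 131.9 CPM at 0.5 h and 30.6 and 23.9 CPM at 8 h of LPS (-2.13 ± 0.18). Zfp652, a partner of the corepressor Cbfa2t3, fell from 92.8 and 83.9 CPM at 0.5 h to 16.4 and 15.6 CPM at 3 h, with 18.9% of its exons shared with a gene on the opposite strand.

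For the least counted genes only a bound is safe. Zfp398 had 0 counts in wild-type cells at 8 h of LPS, at least 7.77-fold lower than at 0 h with a floor of 3 counts. Over both genotypes it had 1 count at 8 h against 75 at 0.5 h, 39.6-fold lower with a 95% interval of 6.90 to 1587. Zfp667 was at least 6.28-fold lower than at 0 h in wild-type cells at 3 h of LPS, and Zfp764 and Zfp827 at least 5.56-fold and 5.35-fold lower in knock-in cells at 8 h.

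By role, 0 of the 12 members that act on RNA, ribosomes or mitosis were called at 1 h of LPS. At an unadjusted p under 0.05, 2 of them differed there, against 1187 of the 9643 genes meeting the 0 h rule. At 8 h of LPS, 2 were called higher (16.7%) and 5 lower (41.7%), against 31.8% and 37.6% of all genes meeting that rule. Zfp207, a spindle and splicing protein also called BuGZ, rose by 1.23 ± 0.08 (edgeR adjusted p = 5.86e-08), from 127.8 and 129.3 CPM at 0.5 h to 294.2 and 298.6 CPM. Zfp385a, an RNA-binding protein induced by p53, rose by 1.54 ± 0.09. Zfp106, which binds RNA in motor neurons, fell by 0.35 on the log2 scale, with 26.1% of its exon sequence shared with a gene on the opposite strand. Among 20 members without KRAB that act on transcription or chromatin, 8 rose (40%) and 7 fell (35%), against the same 31.8% and 37.6%. In the list tied to ubiquitin or inflammatory signalling (4 genes), 1 rose (25%) and 2 fell (50%), the latter being Zfp369, which binds the neurotrophin receptor, with -1.37, and Zfp746, a target of parkin, with -0.81. Zfp91, an E3 ligase acting in NF-kB signalling, differed by 0.28 and Zfp148 by 0.28, but with library totals both differed by -0.57, so the direction depends on the scaling. Of 5 members with known transposon or imprint targets, 0 rose and 3 fell (60%, against 37.6%): Zfp568, which represses an Igf2 transcript, by 0.94, Zfp932, which silences endogenous retroviruses, by 1.08, and Zfp961 by 0.68.

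The partners of KRAB were examined with a list of corepressor and H3K9 methylation genes, of which 26 were tested. At 1 h of LPS against 0.5 h, 0 of the 26 were called by edgeR (median -0.08). There, 4 had an unadjusted p under 0.05, against 1187 of the 9643 genes meeting the 0 h rule. At 8 h, 7 rose (26.9%, against 31.8% of all genes meeting the 0 h rule) and 15 fell (57.7%, against 37.6%), with a median of -0.72 against -0.11. The differences ran from -3.88 to 2.56, so the list did not move as 1 group. Resf1 had 644 and 546 counts at 0.5 h of LPS and 1463 and 2152 at 8 h (wild-type and knock-in). Morc3 had 683 and 716 counts, then 1321 and 1775. Trim28 fell by 1.06 and Setdb1 by 0.60, and Trim28 lay between 70.0 and 149 CPM over wild-type and between 53.6 and 130 CPM over knock-in libraries. Uhrf1, which keeps DNA methylation through replication, fell most, by 3.88 ± 0.14. Cbx3, a reader of H3K9 methylation, fell by 2.96 ± 0.30, and Rif1, which acts in replication timing, by 2.64 ± 0.18. Suv39h2, a writer of H3K9 methylation, had 3 counts at 8 h against 64 at 0.5 h, 11.3-fold lower with an interval of 3.69 to 56.1. Uhrf1, Suv39h2 and Rif1 are also known to follow the cell cycle. After 8 h of TNF, 2 of the 26 rose (7.69%, against 16.2%) and 10 fell (38.5%, against 15.1%).

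After TNF, few zinc finger genes changed early. At 1 h against 0.5 h, 1 rose (0.446%, against 0.145% of all genes meeting the 0 h rule) and 2 fell (0.893%, against 0.197%), with Zfp710 lower by 0.87 ± 0.15 beside Zfp292. At 3 h, 18 rose (8.04%, against 5.83%) and 8 fell (3.57%, against 5.66%). At 8 h, 32 rose (14.3%, against 16.2%) and 16 fell (7.14%, against 15.1%). With scaling by library totals, which moves the median of all genes at 8 h by -0.22, 11 rose and 10 fell at 3 h and 15 rose and 35 fell at 8 h, so the share of called members that rose was 52.4% and not 69.2% at 3 h and 30.0% and not 66.7% at 8 h. Measured from 0 h, 4 wild-type and 9 knock-in values were 2-fold lower at 1 h of TNF, against 0.384% and 0.622% of all genes meeting the rule. Zfp319 had 15.1 and 18.6 CPM at 0.5 h and 36.6 and 44.4 CPM at 8 h of TNF, rising by 1.29 ± 0.14 (edgeR adjusted p = 2.27e-05). Zfp800 rose by 1.21 ± 0.17 and Zfp324 by 1.31 ± 0.27. Zfp703 fell by 1.30 ± 0.17 (edgeR adjusted p = 0.00012), from 88.6 and 105.9 CPM to 33.7 and 44.4 CPM. Zfp319, Zfp800, Zfp324 and Zfp703 thus had the same direction as after LPS, and no member was called in opposite directions after LPS and TNF at the same time. Opposite calls were not counted over all genes, and few members were called after TNF, so that 0 does not show that the stimuli act alike. The TNF counts rest on single libraries. The count of 18 higher at 3 h was 2 without the wild-type and 4 without the knock-in TNF library at 0.5 h, 5 and 8 without those at 3 h, and 28 without either LPS library at 8 h. The count of 8 lower was 3 without the wild-type TNF library at 0.5 h and 4 without either TNF library at 3 h. The count of 32 higher at 8 h was 14 and 13 without the TNF libraries at 0.5 h, 19 and 13 without those at 8 h, 20 without either at 1 h, and 21 without the wild-type LPS library at 0.5 h or either LPS library at 1 h. The count of 16 lower was 8 and 9 without the TNF libraries at 0.5 h and 9 and 7 without those at 8 h. At 1 h every call was lost without the wild-type TNF library at 0.5 h or either TNF library at 1 h.

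Set directly against each other, LPS and TNF differed at 1 h in 8 of the 224 genes, all lower after LPS (3.57%, against 0.187% of all genes meeting the 0 h rule), and in 0 higher (against 0.809%). Of all genes tested, 18 were lower after LPS. By KRAB class the 8 were 5 with a match and 3 without, or 6 and 2 with 1 mismatch allowed. Zfp553 had 2.73 and 2.93 CPM after LPS and 10.7 and 9.32 CPM after TNF, a difference of -1.79 ± 0.29 (edgeR adjusted p = 0.00823). Zfp84 had 12.2 and 9.75 CPM against 24.2 and 22.3 CPM (-1.05 ± 0.16, edgeR adjusted p = 0.00497). The groups did not overlap for either gene. Zfp12 differed by -1.35 ± 0.27 and Zfp120 by -0.65 ± 0.13. Averaged over 0.5 and 1 h, 4 members were lower after LPS (1.79%, against 0.104%) and 0 higher (against 0.716%). At an unadjusted p under 0.05, 84 members differed at 1 h and 60 over both early times. Of the 9643 genes meeting the rule, 716 and 604 did. DESeq2's Wald test and limma-voom each called 1 member higher at 1 h, and 1 over both early times. The count of 8 was 4 without the wild-type LPS library at 0.5 h, 5 without either TNF library at 0.5 h, 0 without the wild-type TNF library at 1 h or the knock-in LPS library at 1 h, 2 without the wild-type LPS library at 1 h and 3 without the knock-in TNF library at 1 h. The count of 4 was 0 or 1 without any 1 of the 8 early libraries.

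At 3 h, 20 members were higher after LPS than TNF (8.93%, against 15.3% of all genes meeting the 0 h rule) and 66 were lower (29.5%, against 16.2%). At 8 h the counts were 36 (16.1%, against 27.9%) and 65 (29.0%, against 33.1%). The median differences were -0.38 and -0.25. Zfp395 differed by -3.25 at 3 h and by -2.91 at 8 h, having 18.2 and 21.9 CPM after 3 h of TNF. Zfp704 differed by -2.96 at 8 h. On the other side, Zfp800 was higher after LPS by 2.27 at 3 h, and Zfp949, Zfp324 and Zfp281 by 3.00, 2.61 and 1.93 at 8 h. Library totals put the median of all genes at -0.41 and -0.72. With them, 11 were higher and 136 lower at 3 h and 9 higher and 144 lower at 8 h. The share of called members that were higher was then 7.48% and not 23.3% at 3 h. At 8 h it was 5.88% and not 35.6%. Without the wild-type TNF library at 3 h, 37 were lower at 3 h, and without the knock-in LPS library 39 were. Without the knock-in TNF library at 3 h, 13 were higher. At 8 h, 36 were lower without the knock-in LPS library, 41 without the wild-type and 43 without the knock-in TNF library.

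Few members were called different between the genotypes. Over the 8 stimulated pairs of libraries, 6 members were higher in RelA-TA-KI cells (2.68%, against 10.3% of all genes meeting the 0 h rule) and 6 were lower (2.68%, against 5.81%), with a median of -0.01. At an unadjusted p under 0.05, 41 of the 224 members differed, against 2891 of the 9643 genes meeting the rule, a larger share. With scaling by library totals, 2 were higher and 18 lower, so the balance between the directions depends on the scaling. Under TMM scaling, the 112 members with the higher 0 h counts gave 5 of the higher and 3 of the lower calls. The 112 with the lower counts gave 1 and 3. How far low counts reduce the shares called was not tested. Before stimulation no member was 2-fold apart (0.363% of genes meeting the rule were higher and 0.456% lower), with log2 differences from -0.63 to 0.93. After LPS the Pearson correlation of the genotypes' changes from 0 h over the 224 genes was 0.739 at 1 h and 0.824 at 3 h. After TNF it was 0.381 and 0.561. These correlations describe genes that share the libraries and their depth, and have no test.

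**Figure D5:**
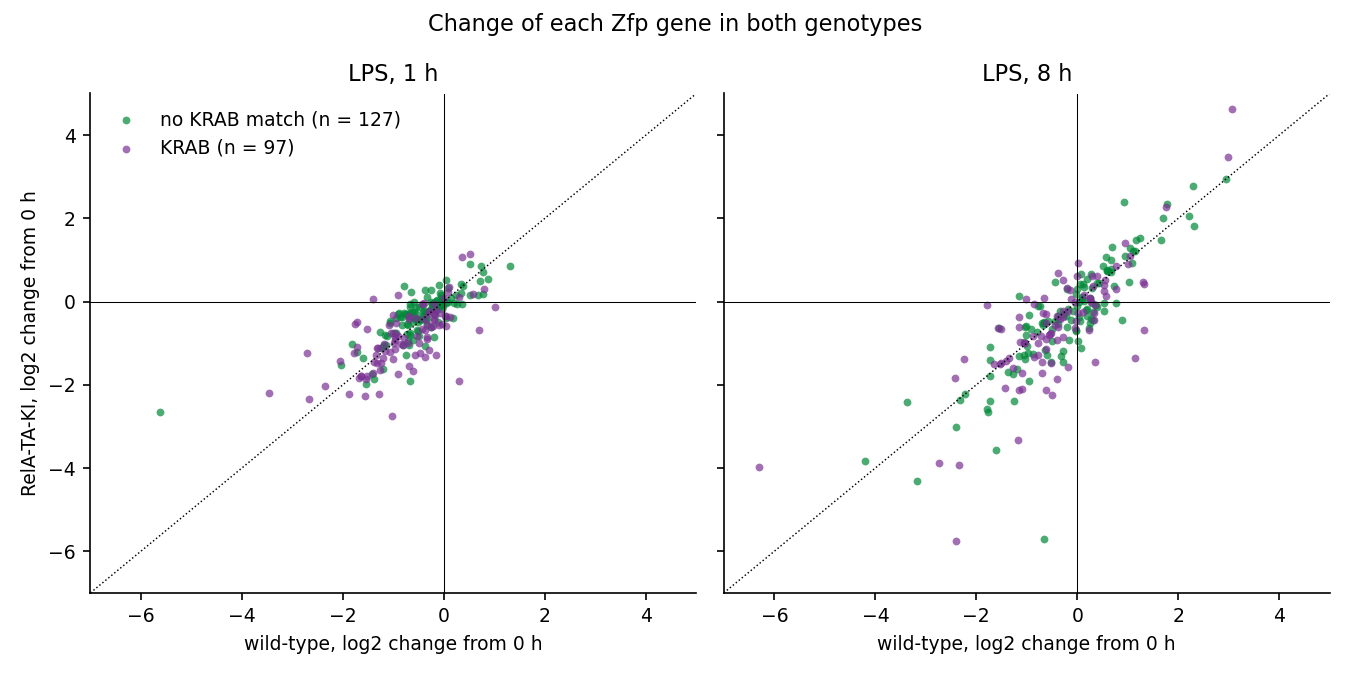
Log2 change from 0 h in knock-in cells against that in wild-type cells for the 224 members at 1 h and 8 h of LPS, with members coloured by KRAB class and the line of equal change dotted. The Pearson correlation over genes is 0.739 at 1 h and 0.822 at 8 h.

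Zfp775 differed most between the genotypes. In wild-type cells the 9 libraries had 3.38 CPM at 0 h, 2.43, 1.46, 1.49 and 2.45 CPM after LPS and 1.78, 0.601, 2.90 and 3.05 CPM after TNF. The knock-in cells had 4.85 CPM at 0 h, 4.42, 2.73, 4.12 and 3.49 CPM after LPS and 3.61, 3.66, 6.25 and 5.14 CPM after TNF. Every knock-in value lay above its wild-type partner (8 of 8 pairs, 1.08 ± 0.19, edgeR adjusted p = 0.00245), on 4 to 30 counts a library. The 8 pairs are different conditions with 1 library per genotype. The genotype p-values thus measure the spread across conditions, and not that between animals or cultures. Zfp318, needed for IgD expression in B cells, was higher by 0.33 ± 0.07 in 8 of 8 pairs, and Zfp292 by 0.20 ± 0.05 in 8 of 8. Zfp503, a regulator of striatal development, was lower by 0.59 ± 0.19 in 8 of 8 pairs (edgeR adjusted p = 0.0475), and Zfp719 was lower by 0.56 ± 0.16 in 7 of 8. Stromal marker sums did not overlap between the genotypes (97.9 to 182 and 13.6 to 72.1 CPM), and the sum was lower in knock-in cells in 8 of 8 stimulated pairs. Neutrophil marker sums, among them S100a8 and Mpo, were also lower in 8 of 8 pairs and overlapped (172 to 344 CPM in wild-type and 81.6 to 243 CPM in knock-in libraries). Macrophage marker sums were lower in 7 of 8 (9470 to 13900 and 9040 to 15500 CPM). The part of these markers in the genotype differences was not tested. The count of 6 higher was 2 without the wild-type and 3 without the knock-in library at 1 h of LPS. The count of 6 lower was 1 without either library at 1 or 3 h of LPS and 2 or 3 without a library of either genotype at 0.5 h of LPS or at 1, 3 or 8 h of TNF.

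The test of whether the genotype difference itself depends on the stimulus called 0 of the 224 members (0 of all genes tested). At an unadjusted p under 0.05, 8 members passed, against 453 of the 9643 genes meeting the 0 h rule. The test of late against early times also called 0, against 0.332% of all genes meeting the rule higher and 0.0933% lower. In it, 15 members had an unadjusted p under 0.05, against 1177 of the 9643 genes. DESeq2's Wald test and limma-voom also called 0 members in both. These tests use 6 residual degrees of freedom, and the misses do not show that the genotypes respond alike.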

How the data were processed

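Gene-level raw counts of 18 polyA libraries were the values the authors deposited. Per the submitters' processing notes, cutadapt 1.12, STAR and featureCounts 1.5.0 were run on mm10. How strand was handled and which annotation was counted is not given in the sources used here. Exons of 44 members overlap another gene (12 on the same strand, 35 on the opposite strand), and their counts are less certain. Of 45706 IDs, 45143 had a symbol.

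The quasi-likelihood test of edgeR 4.0.16 was run under R 4.3.3 (TMM scaling, genes kept by filterByExpr with a minimum of 10 and a total of 15, robust quasi-likelihood fit, condition and genotype as terms) on the 16 stimulated libraries, with 7 residual degrees of freedom and Benjamini-Hochberg adjustment over 11270 genes. Changes from 0 h are log2 ratios of CPM with a prior count of 0.5. DESeq2 1.42.0 and limma 3.58.1 served as alternatives, and the fits were tested on simulated data. Named genes are up to 10 per comparison and direction with the largest change past the threshold and the same sign in both genotypes (7 of 8 pairs for genotype), plus the best expressed of each list; others named were chosen after their values were seen. Classes come from GENCODE M21 coding sequences on mm10, and the KRAB A-box was matched as a translated pattern. The comparisons at 1 h, the counts over both genotypes and the class with 1 mismatch were added after the data were seen. Members and gene lists were chosen with earlier results of these data known.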

Additional observations from a re-analysis of the deposited data

How the results depend on the processing

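With scaling by library totals, members called higher and lower were 15 and 123 at 3 h and 17 and 144 at 8 h of LPS against 0.5 h, 11 higher at 3 h and 15 and 35 at 8 h of TNF, 11 and 136 for LPS against TNF at 3 h, 9 and 144 at 8 h, and 2 and 18 for genotype. That scaling reversed Zfp207 for LPS against TNF at 3 h (-0.073), Zfp148 at 8 h of LPS (-0.57) and for LPS against TNF at 8 h (-0.21), and Zfp91 likewise (-0.57 and -0.44). It put the median change from 0 h at -0.64 and -0.54 at 1 h of LPS (wild-type and knock-in) and at -1.05 and -1.41 at 8 h, with 113 and 151 members 2-fold lower at 8 h. With DESeq2's size factors the wild-type median at 8 h was -0.16, and 1 member was higher after LPS than TNF over 0.5 and 1 h.

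DESeq2's Wald test called 11 members higher at 3 h and 20 at 8 h of TNF, 36 lower for LPS against TNF at 8 h, and 1 higher at 1 h and 1 over the early times. Limma-voom called 1 and 1 higher there and 5 lower at 1 h. Without the filter on low counts, 20 were higher at 8 h of TNF, 2 at 1 h of TNF, 1 and 1 for early LPS against TNF, and 16 lower at 1 h. With all 18 libraries the early calls were 1 and 1 higher and 15 lower at 1 h, and 10 were higher for genotype. Among the 144 members with at least 50 counts at 0 h, 10 fell at 1 h of LPS and 12 were higher for LPS against TNF at 3 h. Their medians were -0.41 at 1 h (wild-type) and -0.14 and -0.32 at 8 h of LPS. Of them, 23 and 26 were 2-fold lower at 1 h of LPS (17 in both), 29 and 35 at 8 h, and 0 and 4 at 1 h of TNF. With a prior count of 5, 1 and 2 were 2-fold lower at 1 h of TNF and 26 in both genotypes at 1 h of LPS.

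Leaving out each library in turn gave these ranges. Against 0.5 h, LPS gave 1 to 5 higher and 1 to 24 lower at 1 h, 19 to 34 higher and 39 to 61 lower at 3 h and 45 to 55 higher and 43 to 65 lower at 8 h. TNF gave 0 to 1 higher and 0 to 2 lower at 1 h, 2 to 28 higher and 3 to 9 lower at 3 h and 13 to 34 higher and 7 to 22 lower at 8 h. LPS against TNF gave 0 to 2 higher and 0 to 11 lower at 1 h, 0 to 1 higher and 0 to 4 lower over 0.5 and 1 h, 13 to 21 higher and 37 to 69 lower at 3 h and 27 to 41 higher and 36 to 64 lower at 8 h. Genotype gave 2 to 8 higher and 1 to 5 lower, and its dependence on stimulus or time stayed at 0 calls. No block beyond condition and genotype could be added, because the labels carry no replicate numbers that could serve as one. Condition is a term in every fit, so the genotypes are compared within each condition. Leaving out a library leaves an arm with 1, assumed to vary like the other groups. For all of these shifts, the cause was not tested. Depth limits the precision for low members: the median member had a mean of 76 counts at 0 h.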
